A study of Rattus norvegicus with 6 samples.

Results

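Carbonic anhydrases and a set of genes known to respond to low oxygen were examined in stem cells grown from the skeletal muscle of male rats. The set lists 9 genes: Car3, Car9, Car12, Egln1, Egln3, Ndrg1, Stc1, Bnip3 and Ankrd37. A probe set, which is a group of short oligonucleotides on the array read together as 1 value, was taken when the platform annotation gives it the symbol of 1 of these genes and no other. This gave 8 genes with 1 probe set each, of 18166 named genes on the array. The probe set that carries the symbol Bnip3 also carries that of another gene, so Bnip3 was not analysed here. The set was selected on values in these same libraries, namely the intensity differences of the lipid libraries from the controls and from each other, so these differences are given as a description and were not tested.

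The series holds 6 cultures with 1 Affymetrix Rat Gene 2.0 ST array each, titled cholesterol, fatty acid, OZ serum, LZ serum, high glucose control and low glucose control. The cholesterol cells received cholesterol at 100 mg/dl with cyclodextrin as its carrier, and the protocol names sodium palmitate, a saturated fatty acid given as its salt, as the other lipid. All are cells obtained by plating from muscle of male animals and kept in flasks or 6-well plates. The labels give no strain, animal number, oxygen tension, glucose concentration, palmitate dose or time. They do not say whether a control held cyclodextrin, or which control belongs to which treatment, and OZ and LZ are used as titles. Each lipid or serum library was therefore set against both controls, and a gene was counted when it lay at least 2-fold above or below both. With 1 array per group there is no replicate error and no test, the differences are those of single libraries rather than of conditions, and precision is limited by the number of arrays.

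Cells sense oxygen through the prolyl hydroxylases of the Egln family, which use oxygen to mark the alpha subunits of hypoxia-inducible factor (HIF) for destruction by way of the Vhl protein. When oxygen is short, HIF accumulates, binds DNA at the core letters ACGTG or GCGTG and raises genes for glucose uptake, glycolysis, pH control and survival. Carbonic anhydrases turn carbon dioxide into bicarbonate and protons. Car9 and Car12 do so at the cell surface and are known HIF targets in human tumours, whereas Car3 is a cytosolic form abundant in slow skeletal muscle fibres and in adipose tissue.

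Promoter sequences show where those core letters lie. RefSeq sequences of build GRCr8, from 250 bases before to 50 after the annotated start of a gene, were matched for 5 of the 8 genes: Car9, Car12, Egln1, Egln3 and Ankrd37. ACGTG and GCGTG were searched on both strands, and the matches may overlap each other. Of 33469 promoters of 300 bases, 41.6% held at least 1 of these motifs, 19.3% held ACGTG and 29.7% held GCGTG. The motifs occurred 5 times in Ankrd37, 4 times in Car12, 2 times in Egln1, 1 time in Car9 and 0 times in Egln3. The sites that lie nearest to the annotated start are printed 5′ to 3′ on the strand of the gene, with the motif letters, read on either strand, in capitals. They lie at chr5:62559013-62559042 on the plus strand for Car9, chr8:76169813-76169842 on the plus strand for Car12, chr19:69804662-69804691 on the minus strand for Egln1 and chr16:53001491-53001520 on the plus strand for Ankrd37. A match is a run of letters and not a measured binding site.
Car9: ttatttccgatgCACGTacagcccgtccac
Car12: tcgacacaaccgACGTGCACGCtttggtcc
Egln1: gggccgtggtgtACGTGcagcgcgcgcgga
Ankrd37: cactgtttgggtACGTGaggccgctgcagg

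Array medians over 36685 probe sets ran from 104.6 to 109.2 intensity units. A gene was used in counts when its mean log2 intensity reached the median of all values, 6.74, which 11540 genes did. Of the 8 genes, 7 passed and Car12 did not. Among markers, 6 of 6 annotated mesenchymal progenitor genes passed, Pdgfra and Thy1 among them. Of 6 myogenic markers only Pax7 and Des passed, while Myf5, Myod1, Myog and Cdh15 stayed below. All 3 annotated endothelial markers stayed below. Of 6 macrophage and leukocyte markers Cd68 and Cd14 passed, while Ptprc, Csf1r, Adgre1 and Itgam stayed below.

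Car3 and Car9 were low in the fatty acid library. Car3 (probe set 17746221) had a log2 intensity of 11.48 in the cholesterol library, 8.74 in the fatty acid library, 11.88 in OZ serum and 11.91 in LZ serum, against 12.30 in the high glucose control and 11.84 in the low glucose control. The fatty acid library stood alone, while the other 5 libraries lay within 0.83 of each other on the log2 scale. Car3 in that library was 11.8-fold below the high glucose and 8.56-fold below the low glucose control.

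Car9 (probe set 17798274) had a log2 intensity of 10.75 in the cholesterol library, 8.95 in the fatty acid library, 11.76 in OZ serum and 11.83 in LZ serum, against 12.13 in the high glucose control and 11.26 in the low glucose control. Its order over the 6 libraries was the same as that of Car3: high glucose control, LZ serum, OZ serum, low glucose control, cholesterol, fatty acid. With no replicates, neighbours in this order cannot be told apart. Car9 in the fatty acid library was 9.10-fold and 4.97-fold below the high and the low glucose control. With cholesterol it was 2.61-fold below the high glucose control but only 1.42-fold below the low glucose control, so it was not counted there. Across the 6 libraries Car3 and Car9 had a Pearson correlation of 0.97, and of 0.92 over the 5 libraries other than fatty acid. Both are descriptions of few points that share their arrays.

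Car12 (probe set 17845415), the other surface enzyme, stayed below the median of all values in every library. Its log2 intensity was 5.59 in the cholesterol library, 5.50 in the fatty acid library, 5.71 in OZ serum and 5.60 in LZ serum, against 5.44 in the high glucose control and 5.67 in the low glucose control. Values this low give little information on differences. The site of Car12 printed above holds both motifs, and its 300 bases held 4 matches against 1 for Car9.

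Of 13 further carbonic anhydrases listed, 12 were annotated and 6 passed the signal filter. In the fatty acid library 3 of these 6 were lower than both controls, 1 was higher and 2 lay between them. The higher one was Car15, at 6.88 against 6.78 and 6.83 in the high and low glucose controls. Only 1 of the 6, Car1, was at least 2-fold below both, where 2.01% of all measured genes were. Car1, a cytosolic form best known from red blood cells, had a log2 intensity of 6.86 in the cholesterol library and 6.00 in the fatty acid library, against 7.77 in the high glucose control and 7.18 in the low glucose control. The fatty acid value lies below the median of all values, so its size is less certain. Mitochondrial Car5b, at 9.61 in the fatty acid library against 10.40 and 10.19 in the high and low glucose controls, and Car11, a related protein without enzyme activity, at 8.14 against 8.92 and 8.60, were lower without reaching 2-fold. The median log2 difference of the 6 genes in the fatty acid library was -0.49 relative to the high glucose control and -0.27 relative to the other control, where all measured genes had medians of 0.01 and -0.003. In the cholesterol library none of the 6 reached 2-fold, where 1.19% of all measured genes did, and their medians were -0.09 and -0.02.

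Because Car3 is abundant in muscle fibres and fat, markers of both were set beside it. The summed intensity of 6 adipocyte markers was 467 in the cholesterol library, 526 in the fatty acid library, 481 in OZ serum and 464 in LZ serum, against 492 in the high glucose control and 475 in the low glucose control, with Plin1 and Cidec past the signal filter and Adipoq, Fabp4, Lep and Cfd below it by their means. The 6 slow fibre markers summed to 444 with cholesterol and 544 with fatty acid, against 524 and 540 in the controls, with Myh7, Tnnt1, Tnni1 and Myl3 below the filter by their means. Of the slow fibre markers that passed, the troponin Tnnc1 had a log2 intensity of 6.44 with cholesterol and 6.56 with fatty acid, against 7.18 and 7.37 in the high and low glucose controls, and myoglobin, Mb, was at 7.07 and 7.08, against 7.24 and 7.14. Tnnc1 and Car3 thus both lay below the controls in both lipid libraries. The slow fibre markers under the filter did not go this way with fatty acid. There Tnni1 was at 6.92, against 6.29 and 6.20 in the high and low glucose controls. Myh7 and Tnnt1, at lower signal, also lay above both controls, and Myl3 lay between them. Car3 was 1.28-fold below the nearer control with cholesterol and 8.56-fold with fatty acid, and Tnnc1 was 1.67-fold and 1.54-fold below it. The part of slow fibre RNA in the Car3 value was not tested. The 6 mesenchymal markers summed to 30471 in the cholesterol library and 23622 in the fatty acid library, against 34585 and 34987 in the high and low glucose controls. Thy1, Col1a1 and Pdgfrb carry most of this sum. With fatty acid Cd44 lay above both controls, at a log2 intensity of 10.94 against 10.35 and 10.49, and the others lay below both. The part of these mesenchymal values in the carbonic anhydrase values was not tested. In such bulk samples, fewer cells of a type and less RNA per cell cannot be told apart.

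**Figure D1:**
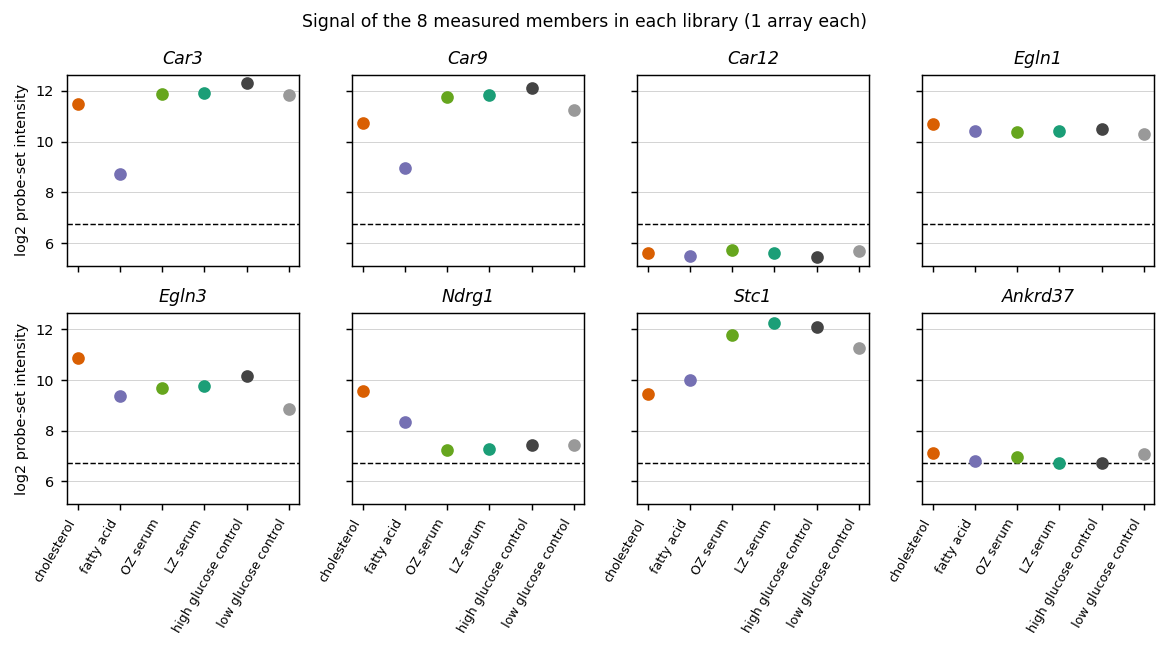
Log2 probe-set intensity (vertical axis) of the 8 measured genes in each of the 6 libraries (horizontal axis), 1 point per array; the dashed line is the median of all values, 6.74. Car3 and Car9 are lowest in the fatty acid library at 8.74 and 8.95, Ndrg1 is highest in the cholesterol library at 9.55, and Stc1 is low in both lipid libraries.

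Among the oxygen sensors, Egln1 and Egln3 were both highest with cholesterol and lowest in the low glucose control, with a Pearson correlation of 0.941 over the 6 libraries and 0.965 without fatty acid, but over spans of different size. Egln1 (probe set 17734486), which encodes the prolyl hydroxylase that does most of the HIF marking when oxygen is plentiful, spanned little. Its log2 intensity was 10.69 in the cholesterol library, 10.43 in the fatty acid library, 10.39 in OZ serum and 10.41 in LZ serum, against 10.49 in the high glucose control and 10.30 in the low glucose control. The whole span was 0.39, with the cholesterol library at the top.

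Egln3 (probe set 17821879) encodes a relative that is itself induced by HIF. Its log2 intensity was 10.86 in the cholesterol library, 9.37 in the fatty acid library, 9.68 in OZ serum and 9.77 in LZ serum, against 10.18 in the high glucose control and 8.87 in the low glucose control. The controls themselves were 2.47-fold apart, with Egln3 higher in the high glucose control, and both serum libraries and the fatty acid library lay between them. The cholesterol library lay above both, 1.61-fold over the high glucose and 3.98-fold over the low glucose control, so whether Egln3 reaches 2-fold there depends on the control. Directly, Egln3 was 2.82-fold higher with cholesterol than with fatty acid. The 300 promoter bases of Egln3 hold neither motif, which says only that these letters are not in that window.

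Egln2, the remaining prolyl hydroxylase of the family, was at 9.40 in the cholesterol library and 8.78 in the fatty acid library, against 8.95 and 9.04 in the high and low glucose controls. It was highest with cholesterol, as Egln1 and Egln3 were, but only 1.28-fold over the nearer control.

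All 8 genes of oxygen sensing and HIF itself passed the filter. In the cholesterol library none was 2-fold from both controls, where 1.19% of all measured genes were. In the fatty acid library 1 was, where 2.65% of all measured genes were. That gene is Epas1 (probe set 17813849), which encodes the HIF-2 alpha subunit. Epas1 had a log2 intensity of 9.80 in the cholesterol library, 7.71 in the fatty acid library, 9.42 in OZ serum and 9.65 in LZ serum, against 9.79 in the high glucose control and 9.63 in the low glucose control. The other 5 libraries lay close together and the fatty acid library was 3.77-fold below the nearer control. Hif1a, the HIF-1 alpha subunit, was at 11.92 with cholesterol and 11.76 with fatty acid, against 11.998 and 11.898 in the controls. Cited2, a transcriptional inhibitor of HIF, was at 12.70 in the fatty acid library, against 11.91 and 11.68 in the high and low glucose controls. Arnt2, a partner subunit, was at 9.13 with cholesterol and 8.07 with fatty acid, against 8.69 and 8.61, and was 2.08-fold higher with cholesterol than with fatty acid.

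Ndrg1 and Stc1, both named as hypoxia-responsive in human and rodent cells, lay on opposite sides of the controls in both lipid libraries. Ndrg1 (probe set 17837791), a cytosolic protein induced by several stresses, had a log2 intensity of 9.55 in the cholesterol library, 8.34 in the fatty acid library, 7.24 in OZ serum and 7.29 in LZ serum, against 7.45 in the high glucose control and 7.43 in the low glucose control. The 4 libraries without a purified lipid lay within 0.21 of each other, and both lipid libraries lay above all of them. Ndrg1 was 4.29-fold over the nearer control with cholesterol and 1.86-fold with fatty acid, just short of the 2-fold threshold. Of the 8 genes, only Ndrg1 had a higher value than both controls in both lipid libraries. Beside it, the summed intensity of 6 macrophage and leukocyte markers was 1694 with cholesterol and 710.5 with fatty acid, against 1104 and 845 in the high and low glucose controls. That sum is carried by Cd14 and by Cd68, which was 2.94-fold over the nearer control with cholesterol, while the defining markers Ptprc, Csf1r, Adgre1 and Itgam stayed below the median of all values in each library. The part of these cells in the Ndrg1 value was not tested.

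Stc1 (probe set 17699814) encodes stanniocalcin 1, a secreted glycoprotein hormone. Its log2 intensity was 9.45 in the cholesterol library, 9.999 in the fatty acid library, 11.76 in OZ serum and 12.24 in LZ serum, against 12.11 in the high glucose control and 11.28 in the low glucose control. Both lipid libraries lay below all 4 others. Stc1 was 6.30-fold below the high glucose and 3.55-fold below the low glucose control with cholesterol, and 4.31-fold and 2.43-fold below them with fatty acid. The lipid comparisons share their control libraries, so the low value in both is not 2 separate observations of the controls. Its relative Stc2 was at 8.67 with cholesterol and 9.52 with fatty acid, against 9.65 and 9.82 in the controls, which is 1.97-fold below the nearer control with cholesterol and 1.10-fold with fatty acid. Of the relatives of Ndrg1, Ndrg2 and Ndrg4 were 1.55-fold and 1.73-fold below the nearer control with fatty acid, the opposite side from Ndrg1, and neither reached 2-fold. Another Ndrg4 probe set, with a lower mean, differed less, at 7.06 with fatty acid against 7.44 and 7.55 in the high and low glucose controls.

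Ankrd37 (probe set 17707954), an ankyrin repeat protein known as a HIF-1 target, stayed close to the median of all values. Its log2 intensity was 7.10 in the cholesterol library, 6.80 in the fatty acid library, 6.95 in OZ serum and 6.71 in LZ serum, against 6.73 in the high glucose control and 7.06 in the low glucose control. The libraries spanned 0.40. The cholesterol value lay 0.04 above the highest of the other 5, and the fatty acid value lay among them. This is the gene whose 300 promoter bases held the most matches among the 5 searched, 5 against 4 in Car12. Of its 5 matches, 2 are the same run of letters, CACGTG, read on both strands. Bnip3l, a mitophagy receptor related to Bnip3, was at 10.09 with cholesterol and 9.88 with fatty acid, against 9.96 and 9.58 in the controls.

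Counted over the 7 genes that passed the filter, 2 were at least 2-fold from both controls in the cholesterol library, Ndrg1 above and Stc1 below. Of all measured genes 1.19% met this rule, 0.381% above and 0.806% below them. In the fatty acid library 3 did, Car3, Car9 and Stc1, all below, where 2.65% of all measured genes met the rule, 0.641% above and 2.01% below. Between the lipids, Car3, Car9, Egln3 and Ndrg1 were at least 2-fold higher with cholesterol and none was lower, where 2.82% of all measured genes differed, 1.92% higher and 0.901% lower. These contrasts helped to choose the genes, so nothing is read from the counts.

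**Figure D2:**
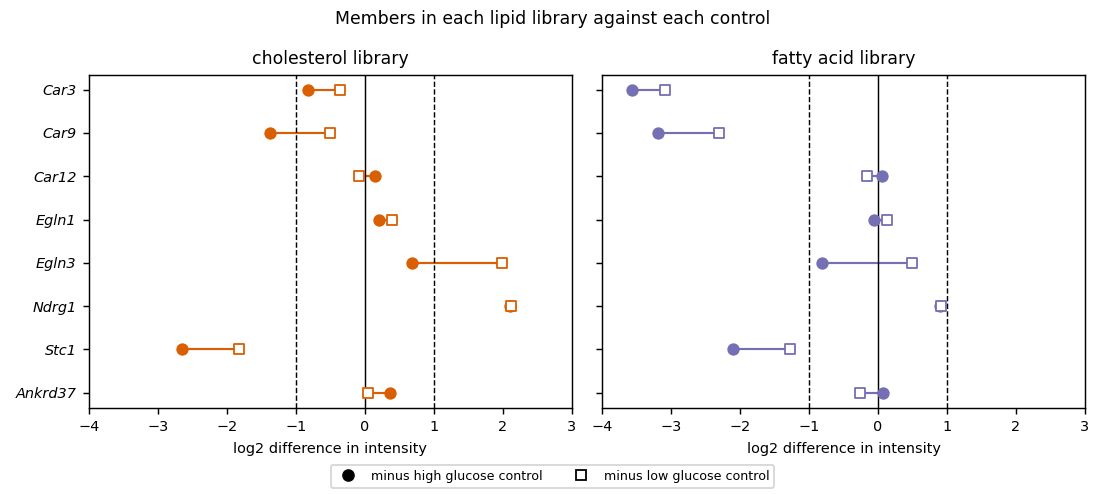
Log2 difference in intensity (horizontal axis) of each of the 8 genes in the cholesterol library (left) and the fatty acid library (right), minus the high glucose control (filled circles) and minus the low glucose control (open squares); dashed lines mark 2-fold. Ndrg1 gives nearly the same difference against either control, 2.10 and 2.12 with cholesterol, whereas Egln3 gives 0.68 and 1.99.

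Of the 7 genes past the filter, 5 varied among the libraries without a purified lipid more than most genes did, and Ndrg1 and Egln1 did not. Over the 4 libraries without a purified lipid, Egln3 spanned 1.31 on the log2 scale, Stc1 0.96 and Car9 0.87. The median span of all 11540 genes was 0.23, and the 95th percentile was 0.56. A span as large as that of Egln3 occurred in 0.217% of genes, as large as that of Stc1 in 0.676% and as large as that of Car9 in 0.979%. Car3 spanned 0.47, which 9.22% of genes reached, and Ankrd37 0.36, which 20.9% reached. In contrast, 58% of genes spanned at least as much as Ndrg1 and 63.8% at least as much as Egln1. Both controls are among these libraries and helped to choose the genes, so these shares are a description only.

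Set directly against the low glucose control, the high glucose control held 6 of the 7 genes at a higher value. Egln3 (log2 difference 1.31) was past 2-fold, as were 0.355% of all measured genes, 0.251% being higher and 0.104% lower. Car9 (0.87), Stc1 (0.83) and Car3 (0.47) came next, Ankrd37 was lower (-0.33), and Ndrg1 was at 0.02. The median of the 7 genes was 0.47, against -0.01 over all measured genes. Both controls entered the choice of the genes, so nothing is read from these values. Whether glucose or another feature of these single cultures goes with these values cannot be told apart.

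In OZ serum 6 of the 7 genes lay between the controls, and in LZ serum 4 did, and a value between them is never counted. Egln3 was 1.76-fold over the low and 1.41-fold below the high glucose control in OZ serum. In LZ serum these values were 1.87-fold and 1.32-fold. Of the 7 genes none reached 2-fold in OZ serum against LZ serum, where 0.026% of all measured genes did. The largest difference was in Stc1 (-0.48). Against both controls none reached 2-fold in OZ serum, where 0.0173% of all measured genes did (0.00867% higher and 0.00867% lower), or in LZ serum, where 0.0% did. Stc1 in LZ serum was the highest of the 6 libraries, 1.10-fold over the high glucose and 1.95-fold over the low glucose control.

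Other genes of the pathway were counted from lists. Of 22 genes of glycolysis and of glucose or lactate transport, 16 were annotated and passed the filter. In the cholesterol library 11 were higher than both controls, 2 lower and none at 2-fold, with a median of 0.32 relative to the high glucose control and 0.15 relative to the other control. All measured genes had medians of 0.01 and 0.002 there, and 1.19% of them were at 2-fold. Hk2, a hexokinase that starts glycolysis, was at 9.61 with cholesterol and 8.98 with fatty acid, against 8.31 in the high glucose control and 8.82 in the low glucose control. Slc2a1, the glucose transporter GLUT1, was at 11.69 with cholesterol and 11.36 with fatty acid, against 10.76 and 11.13. Slc16a3, a lactate exporter, was at 10.83 with cholesterol, against 10.01 and 10.29, and Eno2, an enolase, was at 11.62 against 11.10 and 10.88. In the fatty acid library 5 of the 16 were higher and 7 lower than both controls, none at 2-fold, with medians of 0.03 and -0.20. Of all measured genes 2.65% were at 2-fold there. Aldoc, an aldolase, and Pfkm, a phosphofructokinase, were 1.71-fold and 1.64-fold below the nearer control.

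Between the controls most of these glucose genes were lower in the high glucose control, where Egln3, Car9 and Stc1 were higher. Of the set, Ankrd37 (-0.33) was lower there too, and Ndrg1 was at 0.02. In the high glucose control 12 of the 16 were lower and 4 higher than in the low glucose control. Their median was -0.19, against -0.01 over all measured genes. Of the other HIF targets measured, 13 were higher and 15 lower in this comparison. The glucose transporter Slc2a3 (-0.51), Hk2 (-0.50) and the phosphofructokinase Pfkl (-0.42) differed most.

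**Figure D3:**
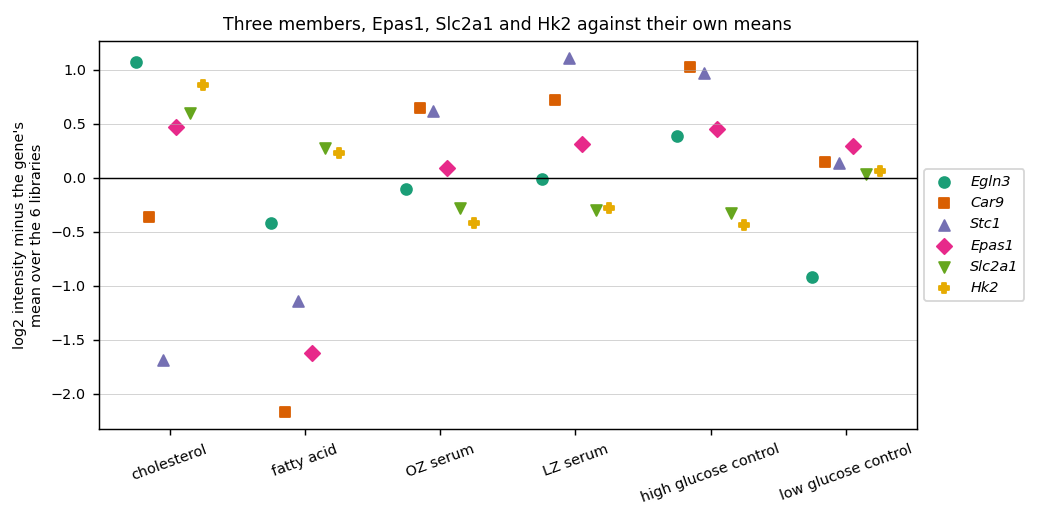
Log2 intensity minus the mean of the same gene over the 6 libraries (vertical axis) for Egln3, Car9, Stc1, Epas1, Slc2a1 and Hk2, by library (horizontal axis), 1 point per array. Egln3, Car9 and Stc1 lie higher in the high glucose than in the low glucose control while Slc2a1 and Hk2 lie lower, and Epas1 is low in the fatty acid library at -1.62.

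Among 33 other HIF targets listed, 28 were measured and none was 2-fold from both controls with either lipid. Of all measured genes 1.19% were with cholesterol and 2.65% with fatty acid, so none among 28 is near those shares. In the cholesterol library 13 were higher and 12 lower than both controls, with medians of -0.01 and 0.05. Ak4, a mitochondrial adenylate kinase, was at 10.31 against 9.65 and 9.63 in the high and low glucose controls, and Vldlr, a lipoprotein receptor, was at 10.85 against 11.49 and 11.53. In the fatty acid library 8 were higher and 14 lower, with medians of -0.15 and -0.08. Ddit4, an inhibitor of mTORC1 signalling, was at 8.30 against 9.30 and 9.61, at 1.996-fold just short of the threshold.

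Carriers that work beside the carbonic anhydrases were counted too. Of 7 bicarbonate and proton carriers listed, 5 were measured, and none was 2-fold from both controls with either lipid. Of all measured genes 1.19% were with cholesterol and 2.65% with fatty acid, so none among 5 is near those shares. Slc4a4, a sodium bicarbonate cotransporter, was at 7.59 in the cholesterol library and 8.53 in the fatty acid library, against 8.20 and 8.31 in the controls. Slc16a1, a lactate and proton carrier, was at 10.56 with cholesterol and 11.62 with fatty acid, against 10.49 and 10.66, so that it was 2.08-fold higher with fatty acid than with cholesterol. In the fatty acid library it therefore lay above the controls where Car3 and Car9 lay below them.

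**Figure D4:**
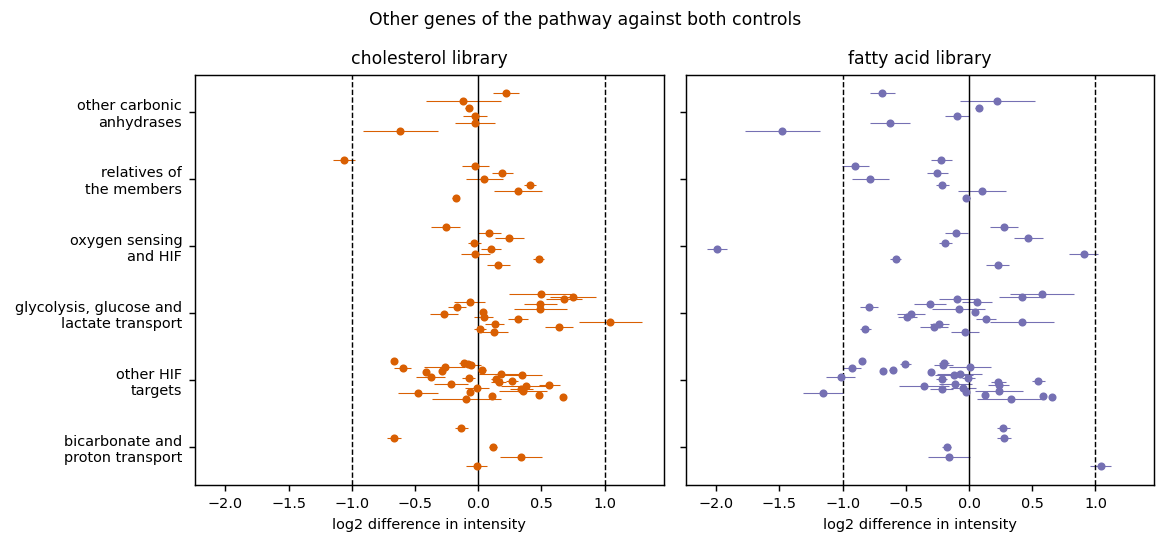
Log2 difference in intensity (horizontal axis) of each measured gene of 6 lists (vertical axis) in the cholesterol library (left) and the fatty acid library (right); each line joins the differences from both controls, its point is their mean, and dashed lines mark 2-fold. Only Car1 and Epas1 lie wholly past 2-fold, both below the controls in the fatty acid library.

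The genes most like each of the 5 genes past 2-fold in any comparison were sought among 864 measured genes that span at least 1 log2 unit, by Pearson correlation over the 6 libraries. With 6 points from shared arrays, of which 1 or 2 lie far from the rest, such values are descriptive. Car3 was most like Pcdhb2, a protocadherin (0.999), Bmp3, a bone morphogenetic protein family member (0.996), and Tp53i11 (0.995). Car9 was most like Shld1 (0.998), Abca9, a membrane transporter (0.998), and Thbs2, a matrix glycoprotein (0.996). Egln3 was most like Rragd, a small GTPase of amino acid sensing (0.975), Fbxo32, the ubiquitin ligase of muscle atrophy (0.974), and Ces1a (0.961). Ndrg1 was most like Abcg1, a cholesterol exporter (0.997), Tgfbr3, a TGF-beta coreceptor (0.987), and Mylip, a ubiquitin ligase of lipoprotein receptors (0.986). Stc1 was most like Pik3c2a, a lipid kinase (0.998), Sema3d (0.991) and Armcx4 (0.990). Without the fatty acid library these 15 correlations lay between 0.957 and 0.999. They had been picked as the highest over the same libraries, so this is not a separate check. For Egln3 and Ndrg1 the cholesterol library, where both were highest, stayed in.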

How the data were processed

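Each deposited value is the linear intensity of a probe set on an array. All were positive, the lowest being 3.63. How the authors summarised, background-corrected and normalized them is not given in the sources used here. Distributions nearly matched between arrays (95th percentiles between 2223 and 2288), so the arrays were compared without further scaling, and any difference in total RNA could not be measured. Log2 was taken without an offset.

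Per the platform annotation, 18511 probe sets have 1 gene symbol, 575 several and 17599 none; only the first kind was used. Of their Entrez identifiers 18394 were found in a RefSeq table of GRCr8, which changed 0 symbols. A gene with several probe sets took the one with the highest mean. A gene's value against both controls is the smaller log2 difference where both have the same sign and 0 otherwise.

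There was 1 array per group, so no test was made. The genes and lists were chosen with earlier results of these data known. Genes named outside the set are members of the lists, mostly the up to 4 per list and comparison with the largest differences, or the 3 closest correlations of a gene. Hif1a was named for its role. The counting rule was checked on simulated data, with noise drawn from the differences between the controls. That check cannot stand in for replicate cultures, and nothing is read from it here. Alternatives were quantile normalization, cyclic loess, median centring, an offset of 32, the mean of probe sets, no signal filter, either control alone and the mean of controls; the serum libraries as further references were added after seeing the data. Python 3.11.15, numpy 2.4.6, pandas 2.3.3, matplotlib 3.10.9, R 4.3.3 and limma 3.58.1 were used.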

Additional observations from a re-analysis of the deposited data

How the results depend on the processing

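No paired analysis was possible because each group has 1 array, and leaving out a replicate was not possible for the same reason. Of 448 recomputed differences of the 8 genes, 0 changed sign after being counted, 0 fell under 2-fold and 3 passed it. These 3 were Car9 in the cholesterol library against the high glucose control alone (-1.38), and Egln3 there against the low glucose control alone (1.99) or the mean of both (1.34). Part of this outcome was fixed beforehand. Each gene has 1 probe set and the filter does not enter its difference, so the mean of probe sets and no filter could change nothing. A difference counted against both controls stays past 2-fold against either one or their mean. Only differences already counted could fall or reverse. The background counts moved more, mainly by the choice of control. A gene counted against both controls is also counted against either one or their mean, and dropping the filter can only add genes. A higher count in those settings therefore follows from the rule. With cholesterol, 137 genes were counted against both controls, 232 against the high glucose one by itself and 216 against the low glucose one. With fatty acid, 306 were counted against both and 472 against the high glucose one. For OZ against LZ serum the count was 3, with 1 after the offset and 15 without the signal filter. For OZ serum against both controls it was 2, with 1 after cyclic loess or the offset, 11 without the filter, 6 against the high and 22 against the low glucose control, and 6 against their mean. For LZ serum it was 0, with 1 without the filter, 3 against the high and 33 against the low glucose control, and 10 against their mean. Scalings moved the median of all genes by at most 0.0624. Signals below the median of all values, as in Car12, or near it, as in Ankrd37 and Car1, limit what can be seen there.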
